A study of Mus musculus with 16 samples.

Results

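The 7 genes ND1, ND2, ND3, ND4, ND4L, ND5 and ND6 encode the subunits of respiratory complex I that are made from mitochondrial DNA. They were taken as the non-control array probes whose gene name is one of these 7 upper-case names, which gave 7 of 34650 gene names on the array, with 1 probe and 1 spot each among 55681 probe names. The scanner software called all 7 probes well above background on each of 16 arrays. RNA came from the gastrocnemius, a calf muscle of mixed fibres. It was taken from 3 wild-type littermates (WT, Eif6+/+) and 3 mice heterozygous for Eif6 (Het, Eif6+/-), C57BL6 males of 8 to 16 weeks that received no treatment. Eif6 encodes eukaryotic initiation factor 6, which binds the large subunit of the cytosolic ribosome, and the mice lacked 1 copy in all tissues, not in muscle alone. Each mouse gave RNA of whole muscle and RNA of a polysome pool, the sucrose gradient fractions with 2 or more ribosomes, so that these 4 groups held 3 arrays each. RNA of the monosome fraction was arrayed for WT mice 1 and 2 and for Het mice 1 and 3. The study's own analysis left the monosome arrays out. The genes were selected on earlier polysome and loading values of these arrays as well as by name, so that comparisons of their signals with polysomes are given as descriptions without a test.

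Complex I passes electrons from NADH to ubiquinone and pumps protons across the inner mitochondrial membrane, and oxidative muscle holds much of it. Its membrane arm is built around the ND proteins: ND2, ND4 and ND5 are the antiporter-like, proton-pumping subunits, ND1 lies at the quinone site, and ND3, ND4L and ND6 help to couple both sites. The remaining subunits and the assembly factors are nuclear-encoded and imported. Mitochondrial DNA is transcribed as long RNAs from both strands, which are cut apart mostly at the tRNAs between the coding regions. ND6 is the only protein gene read from the light strand, and in mammals its mRNA lacks the poly(A) tail that the others carry. ND4L and ND4 stay together on a single bicistronic mRNA. All ND mRNAs are translated inside mitochondria by mitochondrial ribosomes, not by the cytosolic ribosomes to which eIF6 binds.

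The probes, each of 60 bases, are shown because ND6, whose values went apart from those of the other genes, is read from the other strand of the same chromosome. They are printed 5′ to 3′ in the sense of the transcript, as the files give them, with guanines, in which the transcripts of both strands differ, in capitals.

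ND1: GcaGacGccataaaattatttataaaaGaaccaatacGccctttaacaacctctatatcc
ND2: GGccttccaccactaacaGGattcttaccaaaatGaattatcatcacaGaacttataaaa
ND3: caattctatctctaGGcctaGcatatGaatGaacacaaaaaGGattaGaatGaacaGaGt
ND4: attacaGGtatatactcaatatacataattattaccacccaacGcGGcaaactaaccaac
ND4L: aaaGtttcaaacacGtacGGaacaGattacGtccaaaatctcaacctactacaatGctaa
ND5: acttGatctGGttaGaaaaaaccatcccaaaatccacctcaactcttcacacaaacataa
ND6: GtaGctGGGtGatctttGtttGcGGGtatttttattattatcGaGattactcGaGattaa

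The ND6 probe had 15 guanines and the other 6 probes had 4 to 11, against a median of 13 over all probes on the array. In build mm9, to which the files refer, the probes lie within the single-exon coding regions of the mitochondrial chromosome, at chrM:2898-2957 (ND1), chrM:4670-4729 (ND2), chrM:10114-10173 (ND4L), chrM:11370-11429 (ND4) and chrM:13402-13461 (ND5) on the plus strand, and at chrM:13552-13611 (ND6) on the minus strand. The ND3 probe carries the ND3 name and transcript, but the files place it at chr1:24619613-24619672 on the minus strand, a nuclear position, so that ND3 satisfies the selection by its name and not by its chromosome. Its values are given with the others, and the medians without it are given at the end. No probe of another gene on the array shared a run of 15 bases with any of the 7 probes on either strand. In the RefSeq gene table, which has another build and is used here only for order, ND1 stands between the tRNA genes TrnL1 and TrnI, ND2 between TrnM and TrnW, and ND3 between TrnG and TrnR. ND4L is followed directly by ND4, and ND5 and ND6 are neighbours.

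Eif6, the targeted gene, had log2 signals of 8.97 to 9.66 in WT and 8.21 to 8.40 in Het whole muscle with 1 of its probes, and every Het array was below every WT array of the same kind of RNA. Of the 16 arrays, WT polysome 2 and WT monosome 2 stood apart. On both, probes toward the 5′ end of a transcript were brighter than probes toward its 3′ end, with median log2 differences of 0.24 and 0.43 over 1389 probe pairs, whereas the other 14 arrays lay between -1.33 and -0.87. The WT monosome arrays correlated with each other at only r = 0.78 over all tested probes. Array brightness, the 75th percentile of the processed signal, ran from 12.7 to 150 scanner units. The 3 Het whole-muscle arrays were dimmer than every WT whole-muscle array. The arrays were on 2 slides, each of which held both genotypes and all 3 kinds of RNA. All 9 skeletal muscle markers were well above background on every array. The main results that rest on the WT polysome or WT monosome group are given with and without the 2 arrays. Levels are log2 signals, quantile-normalized over the 16 arrays. They are compared between arrays for 1 probe at a time, never between probes. In such samples less RNA per cell and fewer cells that hold it cannot be told apart.

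In whole muscle the levels of the ND mRNAs overlapped between genotypes, in polysomes they were far lower than in whole muscle except for ND6, and in the Het monosome RNA most were at their highest. ND4, a proton-pumping subunit, had log2 signals of 14.74, 14.95 and 14.99 in WT whole muscle and 15.08, 14.83 and 15.24 in Het whole muscle. In polysomes it had 10.09, 7.90 and 11.47 in WT and 12.66, 12.99 and 12.21 in Het. Every polysome array was below every whole-muscle array, and every Het polysome array was above every WT polysome array. In monosomes ND4 had 13.36 and 8.46 in WT and 16.03 and 15.90 in Het, where both Het arrays exceeded all 14 other arrays. The mean level was 15.96 ± 0.09 (SD, n = 2) in Het monosomes, 15.05 ± 0.21 (n = 3) in Het whole muscle, 14.89 ± 0.13 (n = 3) in WT whole muscle, 12.62 ± 0.39 (n = 3) in Het polysomes, 10.91 ± 3.47 (n = 2) in WT monosomes and 9.82 ± 1.80 (n = 3) in WT polysomes. In that order the whole-muscle groups overlapped, as did Het polysomes with WT monosomes and WT monosomes with WT polysomes.

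ND1, the subunit at the quinone site, had log2 signals of 12.91, 12.03 and 11.82 in WT whole muscle and 11.93, 11.38 and 11.53 in Het whole muscle. In polysomes it had 6.50, 6.10 and 7.86 in WT and 8.21, 9.36 and 8.29 in Het, again without overlap. Its monosome values were 10.49 and 7.58 in WT and 11.59 and 12.37 in Het. ND1 was the only one of the 6 genes other than ND6 whose Het monosome values did not exceed every whole-muscle value. Its group order was WT whole muscle, Het monosomes and Het whole muscle, which overlapped, then WT monosomes and Het polysomes, which overlapped, and then WT polysomes.

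ND4L, the smallest ND subunit, had 14.56, 14.57 and 13.99 in WT whole muscle and 14.01, 14.11 and 14.55 in Het whole muscle. Its polysome values were 12.35, 11.65 and 13.17 in WT and 13.11, 13.54 and 13.23 in Het, and here the genotypes overlapped because of WT polysome 3. In monosomes it had 16.39 and 14.05 in WT and 16.55 and 16.83 in Het. The ND4L group order was Het monosomes, then WT monosomes, WT whole muscle and Het whole muscle, of which neighbours overlapped, then Het and WT polysomes, which overlapped too.

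ND6, the light-strand gene, had 5.26, 6.99 and 6.94 in WT whole muscle and 6.58, 7.13 and 7.59 in Het whole muscle. Its polysome values were 7.09, 7.60 and 7.28 in WT and 6.54, 7.09 and 7.80 in Het. Its monosome values were 9.80 and 8.03 in WT and 8.35 and 8.83 in Het. All 4 monosome values were above every other ND6 value, and the genotypes overlapped in each kind of RNA. In WT the polysome values were above the whole-muscle values, and in Het they overlapped. Among neighbours in the order of its means, only Het monosomes and WT polysomes did not overlap.

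In the other 3 genes Het monosomes had the highest mean, followed by both whole-muscle groups, WT monosomes, Het polysomes and WT polysomes. ND2, a proton-pumping subunit, ran from 14.88 to 15.27 in WT whole muscle, 14.81 to 15.16 in Het whole muscle, 10.37 to 12.91 in WT polysomes, 12.95 to 13.62 in Het polysomes, 11.31 to 15.84 in WT monosomes and 16.53 to 16.55 in Het monosomes. ND3 ran from 14.06 to 14.28, 14.17 to 14.42, 8.76 to 11.68, 11.79 to 12.29, 10.30 to 15.22 and 15.71 to 15.76 in the same 6 groups. ND5, the distal proton-pumping subunit, ran from 11.87 to 12.94, 11.86 to 12.21, 8.13 to 10.45, 10.86 to 11.27, 10.54 to 12.92 and 14.27 to 14.56. Het and WT polysomes were only just apart for ND2, with 12.95 above 12.91, and for ND3, with 11.79 above 11.68, and further apart for ND5. In all 3, the Het monosome arrays were above every other array and the WT polysome group had the lowest mean. WT monosomes and Het polysomes were neighbours that overlapped, as were both whole-muscle groups.

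**Figure D1:**
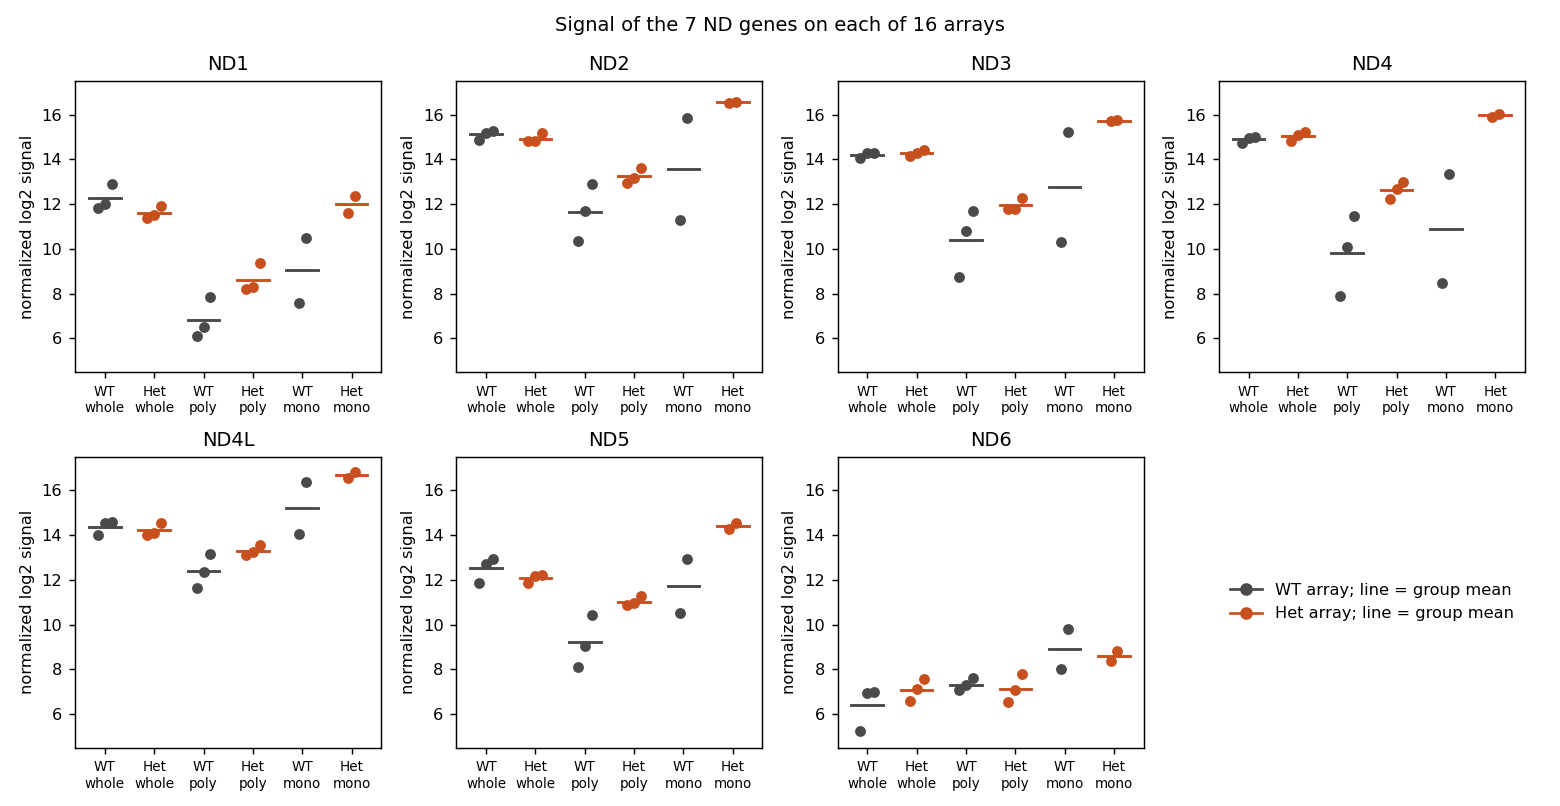
Normalized log2 signal (vertical axis) of each ND gene on the 16 arrays, by group (horizontal axis); each point is 1 array and each line a group mean. WT and Het whole-muscle points lie together for every gene, the polysome points of all genes but ND6 lie lower, and the pair of WT monosome points is widely split, for ND4 at 8.46 and 13.36.

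Signals in the polysome pool were compared with those in whole muscle of the same mouse. After quantile normalization they are relative to the other RNA of each sample. They do not measure how much of an mRNA was carried on several ribosomes. The probes of the 6 heavy-strand genes had a lower signal in polysomes than in whole muscle of the same mouse, and the ND6 probe did not on average. The ND6 probe was dim in whole muscle, at rank 6639 to 13610 from the brightest probe. Whether its mRNA, which lacks a poly(A) tail, was labelled as the others were was not tested. The log2 polysome minus whole-muscle ratio of ND1 was -6.41, -5.93 and -3.96 in WT mice 1 to 3 and -3.72, -2.02 and -3.24 in Het mice 1 to 3. For ND4 it was -4.65, -7.05 and -3.52 in WT and -2.42, -1.84 and -3.03 in Het. For ND4L it was -2.21, -2.92 and -0.82 in WT and -0.90, -0.58 and -1.32 in Het. All 6 mice were below 0 for each of these. Among the probes, which do not rank the mRNAs, ND1 was on average the lowest and ND4L the highest. ND2, ND3 and ND5 lay between them, with WT and Het means of -3.45 ± 1.43 and -1.68 ± 0.43 (SD, n = 3 mice each) for ND2, -3.79 ± 1.53 and -2.33 ± 0.32 for ND3, and -3.31 ± 1.67 and -1.05 ± 0.40 for ND5. For ND6 the ratio was 1.83, 0.60 and 0.34 in WT and -0.04, -0.04 and 0.21 in Het, so that the WT mice were above 0 and the Het mice around it. Averaged over both genotypes, the ratio was -4.21 for ND1, which is an 18.5-fold lower signal, -3.75 for ND4, -3.06 for ND3, -2.57 for ND2, -2.18 for ND5, -1.46 for ND4L and 0.48 for ND6. The median was -2.57, or -2.37 without ND3 (chromosome 1 in the files), against 0.10 over the 20264 tested probes. All 6 genes other than ND6 were lower in polysomes in every mouse, as were 12.3% of all tested probes.

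These values chose the genes in part, and no test is given for them. Without WT mouse 2, whose polysome array stood apart, the median ratio was -2.22. On slide 1 alone it was -2.74 and on slide 2 alone -2.10, with the mice unpaired. The nuclear-encoded complex I subunits went the other way: of 36 tested, 33 had a ratio above 0, with a median of 0.62. Where both fractions were arrayed, all 7 genes were also lower in polysomes than in monosomes of the same mouse, with log2 ratios of -4.42 to -0.56 over ND1 to ND5 and of -2.71 to -0.44 for ND6. The smallest of these differences were those of WT mouse 2 for every gene. Of all tested probes, 15.7% were lower in polysomes in each of these 4 mice.

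**Figure D2:**
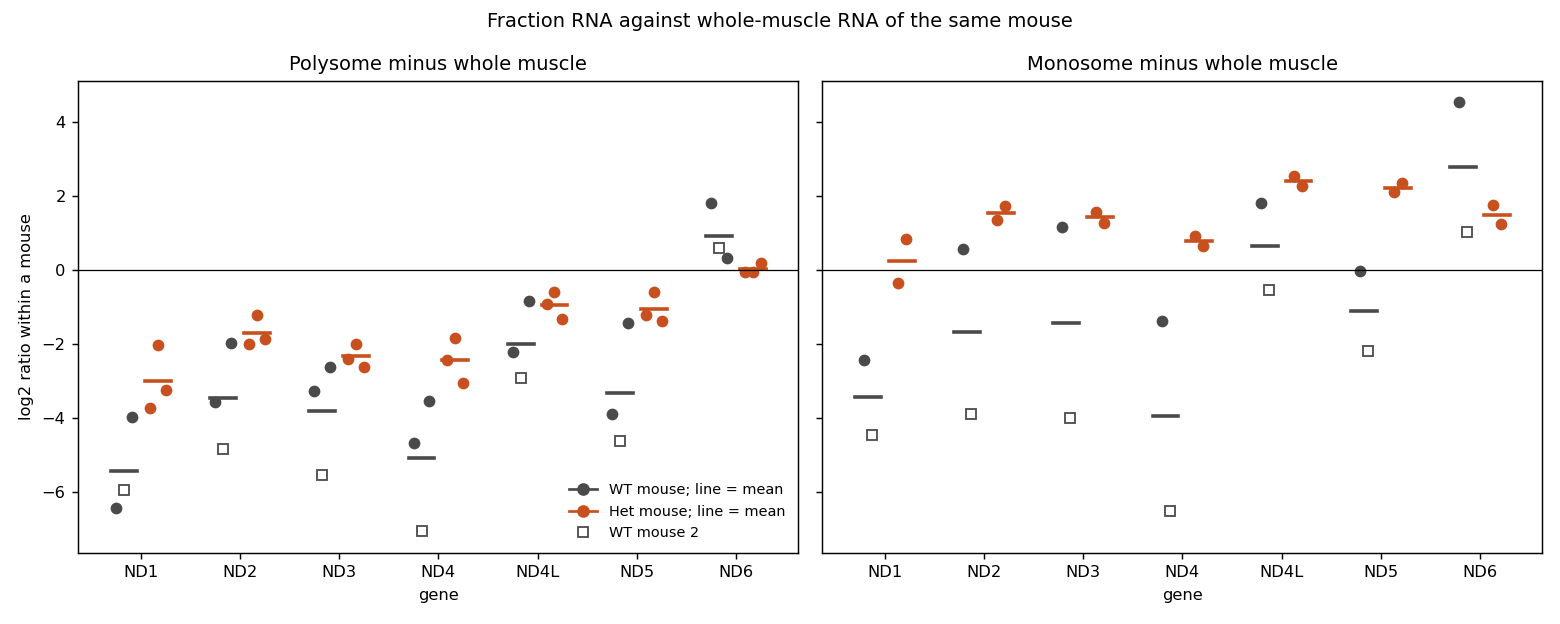
Log2 ratio (vertical axis) of polysome RNA (left) and monosome RNA (right) to whole-muscle RNA of the same mouse for each ND gene (horizontal axis); points are mice, lines are genotype means, and the open square is WT mouse 2. In polysomes every mouse lies below 0 for ND1 to ND5, and in monosomes WT mouse 2 lies below the other 3 mice for every gene, at -6.49 for ND4.

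In polysomes the ND mRNAs other than ND6 had a higher mean signal in Het than in WT. The log2 difference, Het minus WT, was 2.80 for ND4 (6.97-fold), 1.82 for ND5 (3.53-fold), 1.80 for ND1 (3.48-fold), 1.58 for ND2, 1.55 for ND3, 0.90 for ND4L and -0.18 for ND6. The Het and WT arrays did not overlap for ND1, ND2, ND3, ND4 and ND5, which were higher in Het, as were 12.9% of all tested probes. They overlapped for ND4L and ND6. The median over the 7 genes was 1.58 and over all tested probes 0.04. For all 6 genes other than ND6 the WT polysome arrays had a larger SD than the Het polysome arrays, for ND4 1.80 against 0.39 (n = 3 each).

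Relative to whole muscle of the same mouse, the polysome ratio was higher in Het for the same 6 genes, by 2.64 for ND4, 2.44 for ND1, 2.26 for ND5, 1.76 for ND2, 1.47 for ND3 and 1.05 for ND4L on the log2 scale. It was lower for ND6, with a difference of -0.88. The mean ratio of ND4 was -5.07 ± 1.81 in WT and -2.43 ± 0.60 in Het (SD, n = 3 mice each), and that of ND6 was 0.92 ± 0.79 and 0.04 ± 0.14. The mice of the genotypes did not overlap for ND1, ND4 and ND5, higher in Het as were 13.4% of all tested probes, and for ND6, lower in Het as were 11.9%. The Het advantage shrank without WT polysome 2. The median difference was then 0.94 in place of 1.58 in polysomes, and 1.08 in place of 1.76 for the ratio. For ND4 these values were 1.84 and 1.65. On slide 1, where that array was, the median polysome difference was 2.01, and on slide 2 it was 0.37. For the ratio these medians were 2.19 and 0.77, with arrays not matched by mouse. Array brightness moved with genotype too: the log2 ratio of polysome to whole-muscle brightness within a mouse was -1.46, -1.24 and 0.64 in WT and 1.16, 2.98 and 1.73 in Het. With this brightness difference as a term in the fit, the median ratio difference was -0.32, and only ND4 stayed above 0, at 0.50. The polysome difference itself kept a median of 0.72 with brightness as a term.

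Markers of other cells also differed between the polysome groups. The summed log2 signal of 5 blood markers was 16.29 to 17.54 in WT and 15.27 to 15.69 in Het, and that of 5 fibroblast markers was 15.78 to 15.84 in WT and 15.18 to 15.34 in Het. That of 9 skeletal muscle markers was 19.84 to 19.93 in WT and 19.99 to 20.04 in Het. All 5 blood, all 5 fibroblast and all 4 adipocyte markers tested had a lower mean in Het polysomes, and 8 of 9 muscle markers a higher one. All 8 markers of slow and oxidative fibres, which are rich in mitochondria, had a higher mean in Het polysomes, with a median difference of 0.15 (0.54 without the 2 arrays), but their sums overlapped, at 15.86 to 16.30 in WT and 15.95 to 16.39 in Het, and 0 passed by limma (0 at an unadjusted p under 0.05), against 0% and 7.51% of all probes. Immune and endothelial sums overlapped between genotypes, where at least 3 of 6 immune and 3 of 4 endothelial markers were well above background on each polysome array. The part of these cells in the ND values was not tested.

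Whether the mRNAs themselves differed in amount was asked in whole muscle. No ND gene was called different between genotypes there. The SEs below take their spread from all 6 groups of arrays. Within whole muscle the arrays lay closer together for ND2, ND3 and ND4, with SDs of 0.13 to 0.21 (n = 3 each). The log2 difference, Het minus WT, was -0.64 ± 0.66 (SE) for ND1, -0.44 ± 0.60 for ND5, -0.18 ± 0.86 for ND2 and -0.15 ± 0.51 for ND4L. It was 0.08 ± 0.95 for ND3, 0.16 ± 1.001 for ND4 and 0.70 ± 0.54 for ND6. Within whole muscle the SD of ND6 was 0.99 in WT, where WT whole muscle 1 was lowest at 5.26, and 0.50 in Het. By limma, with p-values adjusted by Benjamini-Hochberg over the 20264 probes, 0 of 7 genes passed (adjusted p above 0.99 for each), as 0% of all probes did, and 0 of 7 had an unadjusted p under 0.05 by limma or by the methods' t-test, against 5.74% of all probes by limma. At the study's threshold, an absolute log2 difference above 1 with an unadjusted p under 0.05, 0 of 7 passed, against 4.59% of all probes. The genotypes overlapped for all 7 genes, whereas 5.28% of all probes were higher and 8.33% lower in Het without overlap. The exact permutation tests of single genes, 2-sided, gave p between 0.2 and 0.7, where 3 against 3 arrays cannot go below 0.1. The median over the 7 genes was -0.15 and over all probes -0.03, and it was 0.07 on slide 1 alone and -0.07 on slide 2 alone. With array brightness as a term the median was 1.14 and all 7 differences were above 0, with adjusted p of 0.779 or above. The differences of ND1, ND2, ND4L and ND5 thus turned direction in that fit.

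In monosome RNA, ND1 to ND5 had a higher signal in Het than in WT, and each of these differences was smaller without WT monosome 2. The SEs below take their spread from all 6 groups of arrays, whereas within monosomes the SD of ND4 was 3.47 in WT and 0.09 in Het (n = 2 each). The log2 difference, Het minus WT, was 5.05 ± 1.23 (SE) for ND4, which is 33.2-fold. It was 2.97 ± 1.16 for ND3, 2.97 ± 1.06 for ND2, 2.95 ± 0.81 for ND1, 2.69 ± 0.74 for ND5 and 1.47 ± 0.62 for ND4L. For ND6 it was -0.32 ± 0.66. None passed by limma after adjustment over all probes, where 0.498% of probes passed: the adjusted p was 0.0726 for ND4, 0.0871 for ND1 and ND5, 0.105 for ND2, 0.116 for ND3, 0.131 for ND4L and 0.734 for ND6. At the study's threshold, with p by limma and these SEs, 6 of 7 genes, all but ND6, were higher in Het, and so were 17.1% of all probes. The same 6 did not overlap between genotypes, nor did 26.7% of all probes in that direction. With 2 arrays against 2 the exact permutation p of each was 0.33, the smallest this design allows.

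The WT monosome arrays lay far from each other and the Het monosome arrays close together. For ND4 they were at 13.36 and 8.46, against 16.03 and 15.90 in Het, and for ND2 at 15.84 and 11.31 against 16.53 and 16.55. Without the 2 arrays that stood apart, which takes WT monosome 2 out of this comparison, the median difference over the 7 genes fell from 2.95 to 0.70. ND4 was then at 2.60 (limma adjusted p = 0.0609), ND5 at 1.50, ND1 at 1.49, ND2 at 0.70, ND3 at 0.51, ND4L at 0.30 and ND6 at -1.21, with WT represented by a single array whose spread is taken from the other groups. At the study's threshold 3 genes, ND1, ND4 and ND5, passed in that fit, as 8.31% of all probes did, and ND1 to ND5 all stayed above 0. Without WT mouse 1, which leaves WT monosome 2 as the only WT array, the median was 4.40 and 6 genes passed after adjustment, all but ND6, as did 53.2% of all probes. For ND4 the limma adjusted p ranged from 0.000398 in that fit to 0.9999 on slide 1 alone over all alternatives. Slide 1, with WT monosome 1 and Het monosome 1, gave a median of 0.69, and slide 2, with WT monosome 2 and Het monosome 3, gave 4.79. The 5 blood markers had a summed log2 signal of 16.82 to 17.67 in WT monosomes and 16.46 to 16.56 in Het, and the 9 skeletal muscle markers 19.18 to 19.44 in WT and 19.57 to 19.59 in Het. Adipocyte markers had 11.89 to 12.15 in WT and 10.88 to 10.93 in Het, immune markers 10.01 to 10.85 and 9.06 to 9.33, and fibroblast markers 15.72 to 15.93 and 14.83 to 15.60, all without overlap. As few as 2 of 6 immune markers were well above background on a WT monosome array, and 3 of 6 on a Het one. Of 4 immune markers tested, 1 had a higher mean in Het. The endothelial sums overlapped, as did those of slow and oxidative fibres, of which 7 of 8 markers were lower in Het, with a median of -0.59 (0.07 and 4 of 8 without the 2 arrays), and 0 passed by limma (0 at an unadjusted p under 0.05), against 0.498% and 33% of all probes. Their part in the difference was not tested.

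**Figure D3:**
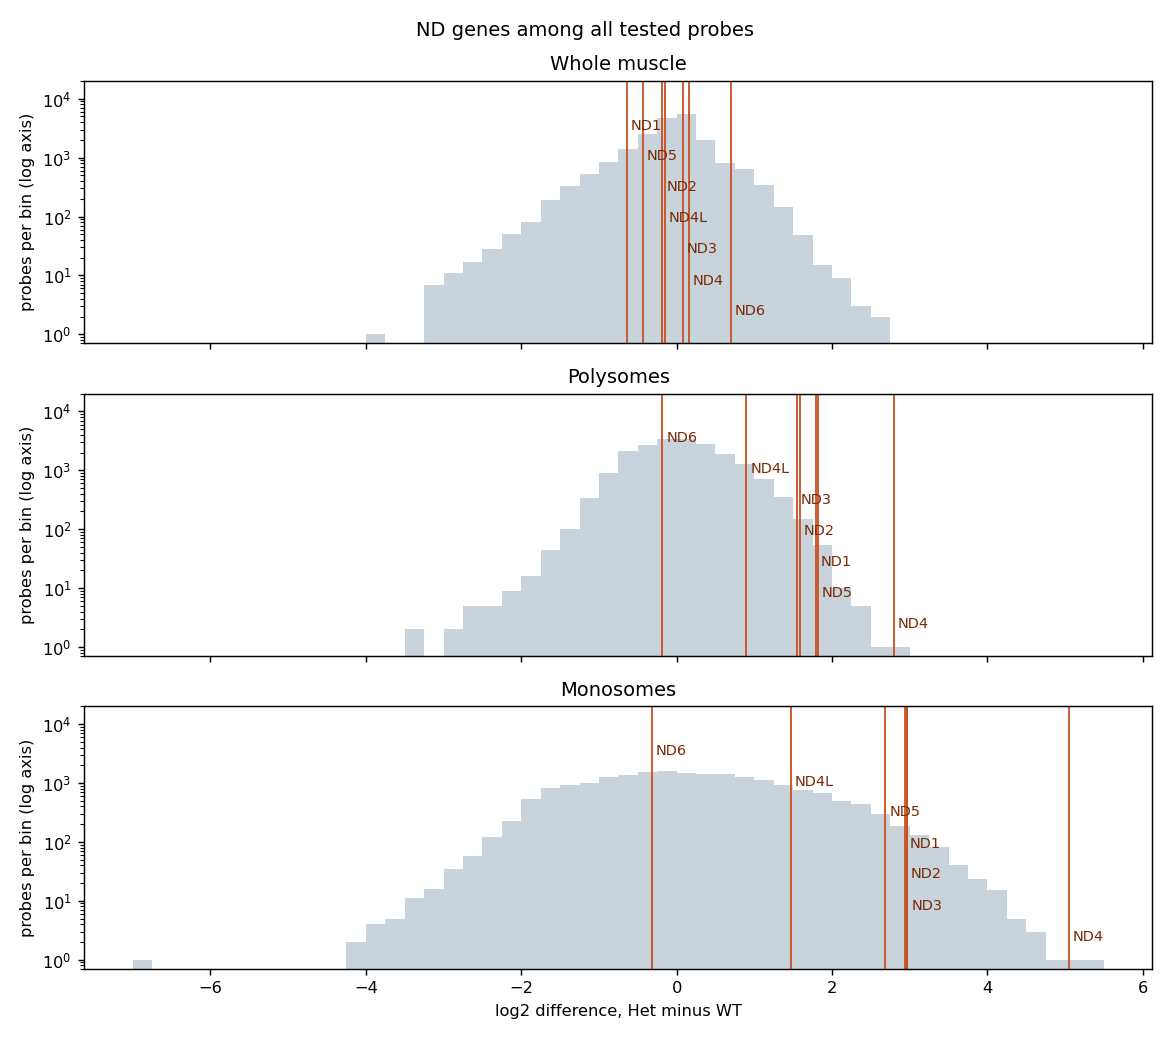
Number of tested probes per bin of 0.25 (vertical log axis) by log2 difference, Het minus WT (horizontal axis), in whole muscle, polysomes and monosomes; each line marks an ND gene. The ND genes lie within the bulk in whole muscle, from -0.64 to 0.70, and all but ND6 lie toward the right in polysomes and monosomes.

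Monosome RNA was also compared with whole muscle of the same mouse, probe by probe. In contrast to polysomes, the ND signals were not lower there as a group, and the probes went different ways. The probes of ND4L and ND4, which lie on a single mRNA, did so too, so that the order of the probes is not an order of mRNAs. The log2 monosome minus whole-muscle ratio of ND6 was 4.54 and 1.04 in WT mice 1 and 2 and 1.77 and 1.25 in Het mice 1 and 3. For ND4L it was 1.83 and -0.52 in WT and 2.54 and 2.28 in Het. For ND1 it was -2.42 and -4.44 in WT and -0.33 and 0.84 in Het. ND2 and ND3, at 0.58 and -3.89 and at 1.17 and -3.98 in WT, were above 0 in all mice but WT mouse 2. ND6 was above 0 in all 4 mice, as were 11.6% of all tested probes, and ND4L in 3 of 4, whereas ND1 was below 0 in 3 of 4. The mean ratio over genotypes was 2.15 ± 0.63 (SE) for ND6, 1.53 ± 0.47 for ND4L, 0.57 ± 0.45 for ND5, 0.01 ± 0.88 for ND3, -0.05 ± 0.77 for ND2, -1.57 ± 0.87 for ND4 and -1.59 ± 0.47 for ND1. By limma 0 of 7 genes passed after adjustment, as 0% of all probes did (adjusted p from 0.183 for ND6 and ND1 to 0.993 for ND3), while 3 had an unadjusted p under 0.05, against 22.9% of all probes. At the study's threshold ND4L and ND6 were higher and ND1 was lower, against 7.98% and 10.1% of all probes in these directions. The median over the 7 genes was 0.01, against -0.10 over all probes, and 1.11 without WT monosome 2, when 5 genes (ND2, ND3, ND4L, ND5 and ND6, all higher) passed the study's threshold, as did 14.5% of all probes. On slide 1 alone the median was 1.34 and on slide 2 alone -1.17. In a fit without the pairing by mouse, over all 16 arrays, ND4L and ND6 passed after adjustment, as did 24.9% of all probes, at 1.66 (adjusted p = 0.0147) and 2.01 (adjusted p = 0.00748). Over all alternatives their adjusted p ranged from these values to 0.9998.

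By genotype, the mean monosome ratio was above 0 for all 7 genes in Het, from 0.26 for ND1 to 2.41 for ND4L, and below 0 for 5 of 7 in WT, from -3.93 for ND4 to 2.79 for ND6. The difference of the ratio between genotypes, Het minus WT, passed by limma for 0 of 7 genes, as for 0% of all probes (adjusted p from 0.273 for ND1 to 0.637 for ND6). For ND4 it was 4.73 ± 1.74 (SE), with both WT mice below 0, at -1.37 and -6.49, and both Het mice above it, at 0.94 and 0.66. In WT mouse 1 the ratios of ND2, ND3, ND4L and ND6 were above 0, like those of both Het mice, and those of ND1, ND4 and ND5 were below it. Without WT mouse 2, which leaves 1 WT mouse and takes the spread from the 2 Het mice, the difference was 2.18 for ND4, 2.25 for ND5, 2.67 for ND1, 0.98 for ND2, 0.59 for ND4L, 0.27 for ND3 and -3.03 for ND6, with limma adjusted p of 0.301 or above for each. Array brightness moved with genotype here as well: the log2 ratio of monosome to whole-muscle brightness was -2.32 and -2.16 in WT and -0.64 and 0.93 in Het. With it as a term, an alternative added after the data were seen, the median difference of the 7 genes was 3.31 in place of 3.21, that of ND4 5.94 ± 3.71 (SE) and that of ND6 0.05, with adjusted p above 0.99 for each.

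ND6 had a pattern of its own over the 16 arrays. With each gene centred on its mean, the Pearson correlation of a gene with the mean of the other 6 was 0.99 for ND2 and ND3, 0.96 for ND5, 0.90 for ND4, 0.89 for ND1, 0.87 for ND4L and 0.13 for ND6, a description over arrays that share mice and fractions. The log2 signal of ND4 spanned 8.13 over the arrays, that of ND4L 5.18 and that of ND6 4.54. WT polysome 2 had the lowest value of ND1, ND2, ND3, ND4, ND4L and ND5, and the highest ND6 value among the 3 WT polysome arrays. ND6 was lowest on WT whole muscle 1, the brightest array, where ND1, ND2 and ND5 had their highest whole-muscle values and ND3 and ND4 their lowest.

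**Figure D4:**
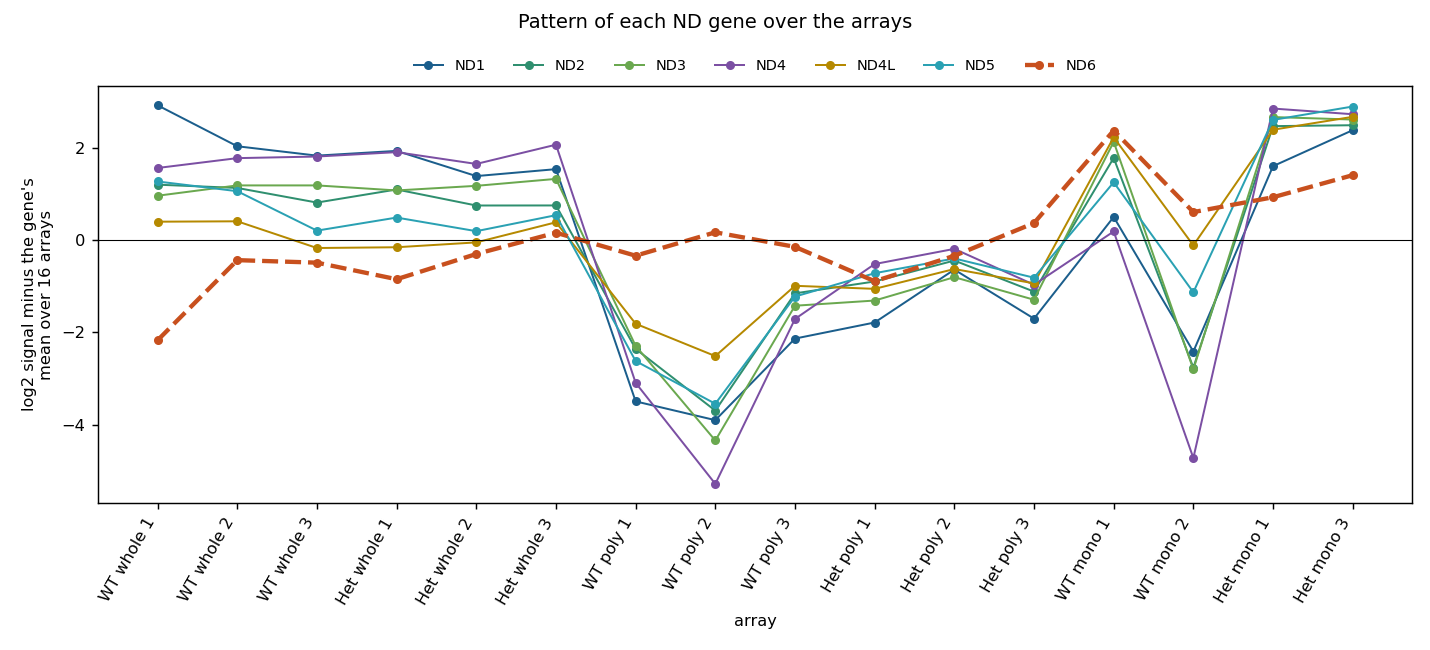
Log2 signal minus the gene's mean over the 16 arrays (vertical axis) for each array (horizontal axis), 1 line per ND gene, with ND6 dashed. The 6 heavy-strand genes fall together on the polysome arrays, deepest on WT polysome 2, and on WT monosome 2, whereas ND6 runs apart from them on the whole-muscle and WT polysome arrays.

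The gene names most alike to the mean ND profile, among 9174 probes well above background on all arrays, were ATP6 (r = 0.996), ATP8 (r = 0.98), the unnamed transcript cluster TC1663799 (r = 0.97), COX1 (r = 0.97) and COX3 (r = 0.97). All but the cluster are heavy-strand genes of mitochondrial DNA, and r is over the same 16 arrays. The 6 other protein genes of mitochondrial DNA (CYTB, COX1, COX2, COX3, ATP6 and ATP8) had a median log2 difference, Het minus WT, of -0.14 in whole muscle, 1.73 in polysomes and 2.67 in monosomes, and a median polysome ratio of -3.23. Without the 2 arrays the last 3 medians were 1.02, 0.85 and -2.74.

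ND4L and ND4, whose coding regions follow each other on the same mRNA, differed in size of change between whole muscle and either fraction, with the probe of ND4L upstream of that of ND4. From whole muscle to polysomes the ND4 signal fell by more than the ND4L signal in all 6 mice, with mean log2 ratios of -3.75 and -1.46. From whole muscle to monosomes ND4L was higher by 1.53 on average and ND4 had -1.57, and again ND4L had the higher ratio in all 4 mice. The gap between the 2 probes was largest on WT polysome 2 and WT monosome 2, the arrays with the raised 5′ signal. ND4L was -2.92 and ND4 -7.05 against whole muscle on the former, and -0.52 and -6.49 on the latter. From monosomes to polysomes the ratios of the 2 genes were alike in Het, at -3.37 and -3.69 for ND4 and -3.44 and -3.61 for ND4L, and in WT they were -3.28 and -0.56 for ND4 and -4.04 and -2.40 for ND4L. No test of these differences was made.

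Nuclear genes of the same complex had smaller median differences than the ND genes between genotypes in polysomes and monosomes, the latter only just without the 2 arrays that stood apart. Of 37 nuclear-encoded complex I subunits listed, 36 were tested and 0 passed by limma after adjustment in whole muscle (0 at an unadjusted p under 0.05), against 0% and 5.74% of all probes, with a median difference of 0.13 and 30 of 36 above 0. Among the accessory subunits Ndufa9 was at 0.30, Ndufb10 at 0.29 and Ndufa10 at -0.30. In polysomes the median was 0.04, with 18 above 0 and 18 below, and 0 passed after adjustment, as 0% of all probes did (4 at an unadjusted p under 0.05, against 7.51% of all probes). In monosomes the median was 0.65, with 31 of 36 above 0 and 1 passing, as 0.498% of all probes did, the accessory subunit Ndufb6 (log2 difference 1.52, adjusted p = 0.0451). At an unadjusted p under 0.05 there were 17, against 33% of all probes. Ndufc1 had the largest value, 2.05 (adjusted p = 0.0541). Without the 2 arrays Ndufb6 was at 1.20 (adjusted p = 0.0983) and Ndufc1 at 1.34 (adjusted p = 0.124), 0 of 36 passed (20 at an unadjusted p under 0.05, against 14.4% of all probes) and the median was 0.61. From whole muscle to monosomes 0 passed (11 at an unadjusted p under 0.05, against 22.9% of all probes), with 3 higher and 7 lower at the study's threshold, against 7.98% and 10.1%.

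Of 13 complex I assembly factors tested, Tmem126b, which takes part in building the membrane arm, passed by limma in monosomes with a log2 difference of 2.02 (adjusted p = 0.0109). No other did, and 0.498% of all probes passed. An unadjusted p under 0.05 was reached by 6 of 13, against 33% of all probes. The median was 0.57. Without the 2 arrays Tmem126b was at 1.96 and the median at 0.39. None passed in whole muscle, where the median was 0.19, or from whole muscle to monosomes, where it was -0.61 (0 and 5 at an unadjusted p under 0.05, against 5.74% and 22.9% of all probes). Of 23 genes for mitochondrial transcription and RNA maturation, none passed by limma in whole muscle, in monosomes or from whole muscle to monosomes (0, 8 and 13 at an unadjusted p under 0.05, against 5.74%, 33% and 22.9% of all probes). Their median in monosomes was 0.79, with the highest values for Tfb2m (3.15) and Tfam (3.06), both needed to start transcription of mitochondrial DNA. On WT monosome 2 only 9 of the 26 genes of this list on the array were well above background, against 18 to 19 on the other monosome arrays. Without the 2 arrays Tfb2m was at 0.34, Tfam at 0.48 and the median at 0.34. From whole muscle to monosomes 22 of 23 were below 0, with a median of -1.15 (-0.78 without the 2 arrays) and the lowest value for Tefm (-2.76), the mitochondrial transcription elongation factor. By unadjusted p under 0.05 with an absolute log2 difference above 1, the counts in monosomes were 9 of 36 subunits, 5 of 13 assembly factors (4 higher, 1 lower) and 8 of 23 transcription and maturation genes, against 28.6% of all probes in either direction. These counts include WT monosome 2. Without the 2 arrays the medians of these lists were 0.61, 0.39 and 0.34, in place of 0.65, 0.57 and 0.79.

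**Figure D5:**
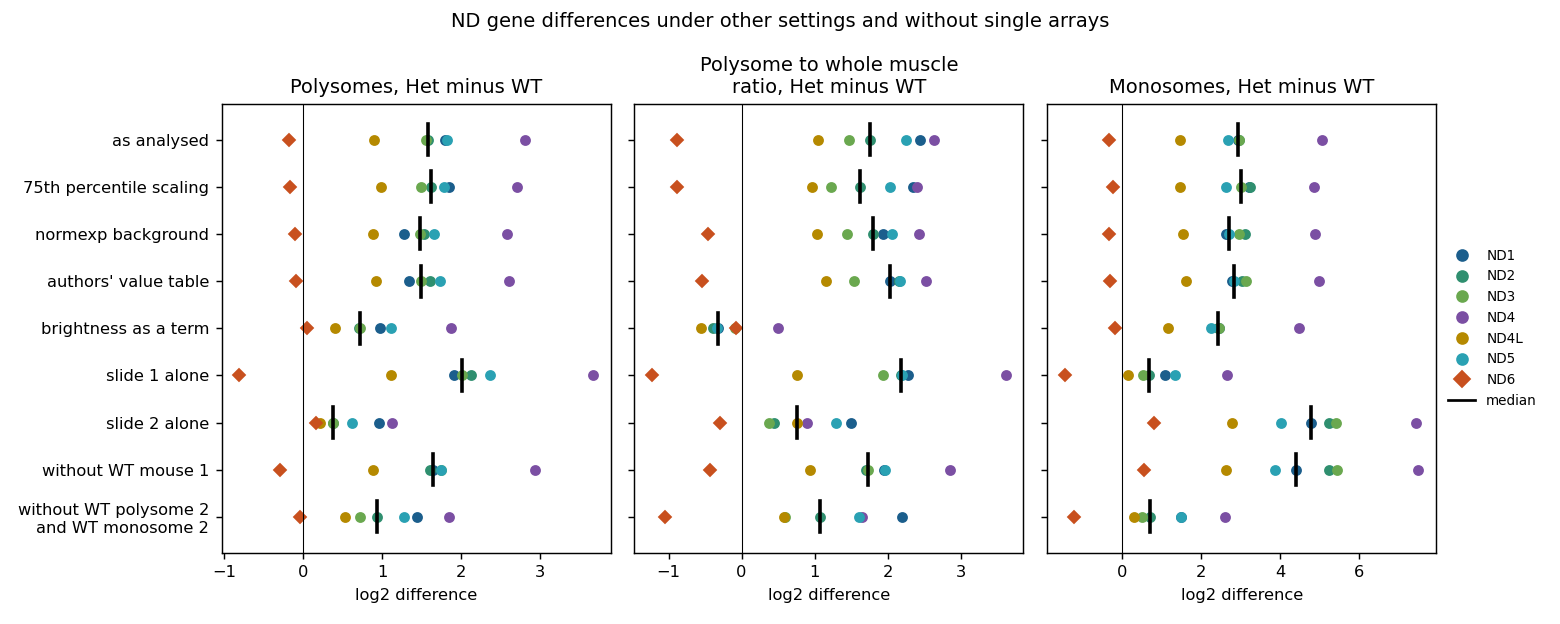
Log2 difference, Het minus WT (horizontal axes), of each ND gene in polysomes, in the polysome to whole-muscle ratio and in monosomes, under the analysis as described and 8 alternatives (vertical axis); black bars are medians. The monosome median falls from 2.95 to 0.70 without WT monosome 2, and the ratio median lies at -0.32 with array brightness as a term.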

How the data were processed

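Gastrocnemius RNA of 16 samples was hybridised in a single colour to Agilent mouse arrays. Per the file headers, the deposited scanner files (Feature Extraction 11.0.1.1) hold spot intensity values, of which the processed signal is background-subtracted. The authors' value table holds log2 values that rank as the raw median signal does (Spearman 1), with medians of 5.68 to 5.70 per array, as quantile normalization would leave them. The methods name log2 transformation and quantile normalization.

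From the intensity values, control spots and spots marked as outliers by the scanner software were left out, log2 processed signals were averaged per probe name and quantile-normalized over the 16 arrays, and tests covered the 20264 probes (15916 gene names) that had a value on all arrays and were called well above background throughout some group. No spot was saturated. Moderated tests were made with limma 3.58.1 under R 4.3.3, and p-values were adjusted by Benjamini-Hochberg over these probes. Het and WT were compared in a fit of all 16 arrays with group as the term. Fractions were compared through the log2 ratio to whole muscle of each mouse, since the design description says that every mouse gave all kinds of RNA. Deviations of the whole-muscle and polysome arrays of a mouse from their group means correlated at 0.05 to 0.48. Calls used an adjusted p under 0.05 and, separately, the study's threshold (absolute log2 difference above 1, p under 0.05, here unadjusted). Single genes were compared by 2-sided exact permutation tests. The fits were tested on simulated data. The precision is limited by the 2 or 3 arrays per group, each from a separate mouse. Alternatives were scaling to the 75th percentile, normexp with an offset of 50, the authors' table, other filters, slide or brightness as a term, each slide alone, the mouse as a block, and leaving out mice or arrays.

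The 7 genes and all gene lists were chosen with earlier results of these data known. Named genes were the 7 genes, up to 2 highest and 2 lowest of each list in a comparison, and the 5 gene names most alike over the arrays. A value that this rule would name is not reported here. Figures were drawn with matplotlib 3.10.9.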

Additional observations from a re-analysis of the deposited data

Results flagged for a closer look

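In monosomes against whole muscle of the same mouse, ND4 and ND5 moved in opposite directions in the genotypes: both WT mice were below 0 and both Het mice above it. For ND4 the difference of the log2 ratios, Het minus WT, was 4.73, and for ND5 it was 3.34. By limma the adjusted p of the difference was 0.375 for ND4 and 0.274 for ND5. The ND5 ratio of WT mouse 1 was only -0.02, and that of WT mouse 2, whose monosome array stood apart, was -2.19. Without WT mouse 2, with the spread taken from the 2 Het mice alone, the difference was 2.18 for ND4 and 2.25 for ND5, each with an adjusted p of 0.301, and ND5 was then near 0 in the only WT mouse left.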

How the results depend on the processing

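Over the alternatives run, ND1, ND2, ND3, ND4, ND4L and ND5 stayed lower in polysomes than in whole muscle, with a median from -3.08 to -2.10. Their polysome signal also stayed higher in Het. The median in whole muscle was 1.14 with array brightness as a term (ND1 1.14, ND2 1.71, ND4L 0.92, ND5 1.08, all opposite to the values given) and 0.0658 on slide 1 alone (ND4L 0.34, ND5 0.16). ND4L was at 0.0243 with scaling to the 75th percentile, and ND3 at -0.0459 with the authors' value table and -0.0312 with slide as a term. In monosomes the median was 0.69 on slide 1 alone, 4.79 on slide 2 alone and 0.70 without WT polysome 2 and WT monosome 2, an alternative chosen after the data were seen, and 0.70 to 4.40 when each replicate was left out. Slide 2 sets a single array, WT monosome 2, against a single Het array, and leaving out a mouse with a monosome array leaves a single array too. The number passing after adjustment, 0 in the main setting (0.498% of all probes), was 3 with normexp (3.36%) and 3 with the authors' table (4.04%). At the study's threshold it was 0 on slide 1 alone (2.01% of all probes), 3 without the 2 arrays (8.31%) and 2 to 6 with replicates left out (8.64% to 55.8%). ND6 was at 0.80 on slide 2 alone and -1.21 to 0.56 with replicates left out. In polysomes the median was 0.37 on slide 2 alone, and the difference of the polysome ratio was -0.32 with brightness as a term.

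For monosomes against whole muscle, the number passing after adjustment was 2 with slide as a term (24.9% of all probes), 6 on slide 2 alone (47.6%) and 0 to 6 with replicates left out (36.7% without WT replicate 1, where 6 passed), and at the study's threshold 0 with brightness as a term (0.873%), 6 on slide 2 alone (47.2%), 5 without the 2 arrays (14.5%) and 1 to 5 with replicates left out (5.51% to 36.8%). Near-zero ratios turned: ND3 was at -0.51 with the 75th percentile, -0.0475 with the authors' table, -0.53 with brightness as a term, -1.17 on slide 2 alone and -1.27 to 1.30 with replicates left out. ND2 was at 0.00664 with normexp, 0.0371 with slide as a term, 1.34 on slide 1 alone, 1.07 without the 2 arrays and -1.17 to 1.07 with replicates left out. The cause of these changes was not tested. Without ND3 the medians were -0.17 in whole muscle, 1.69 in polysomes, 2.82 in monosomes, 2.01 for the polysome ratio between genotypes and 0.26 for monosomes against whole muscle. Without the replicate block by mouse, 2 genes passed, ND2 was at 0.0371, and 5047 of all probes passed in place of 0. Adding the block to the fit of single arrays gave a monosome median of 2.87 and 144 probes in place of 101, and changed no call of an ND gene. Over all probes the 101 became 0 with the 75th percentile, 681 with normexp, 819 with the authors' table, 322 without the filter, 153 with probes well above background everywhere, 8227 on slide 2 alone, 40 with brightness as a term and 51 without the 2 arrays. Taking the mean over probes of a gene changed nothing, with 1 probe per gene, and the methods' t-test was not run on monosomes. The number of arrays limits the precision throughout.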
